A study of Mus musculus with 14 samples.

Results

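The mitochondrial genome of the mouse carries 37 genes: 13 for subunits of the respiratory chain and ATP synthase, 2 for the ribosomal RNAs of the mitochondrial ribosome and 22 for transfer RNAs. They were taken as every gene row whose name begins with mt-, which gave 37 of the 41053 rows in each of 2 count tables. RNA had been sequenced from spleen B cells of C57BL/6 mice in 14 libraries. Germinal center (GC) B cells, which proliferate in lymphoid follicles while their antibody genes mutate, gave 4 libraries of genotype TET2 Knock-Out (KO, replicates 2 to 5) and 3 of genotype TET2 Wild-Type (WT, replicates 1, 3 and 4). Lymphoma B cells gave 2 libraries of genotype TET2 Knock-Down (shTet2, a short hairpin RNA against Tet2) and 5 control libraries of genotype TET2 Wild-Type (replicates 1 to 5). The TET2 protein oxidises methylcytosine in nuclear DNA. The age and sex of the mice, the deleted part of Tet2, any Cre driver, the sorting of the cells and the origin of the lymphoma are not stated in the labels. Titles of both shTet2 libraries share a leading number, and those of the 5 control libraries each carry their own; what the number marks is not stated.

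Mitochondrial DNA is a small circle transcribed from both strands into long RNAs that cover many genes. Most genes lie end to end, and transfer RNAs between them are cut out, which frees the messenger and ribosomal RNAs. Messenger RNAs then receive a short poly(A) tail; ND6, the one protein encoded on the opposite strand from the rest, is known in human cells to give an RNA without such a tail. The proteins are 7 subunits of complex I (NADH dehydrogenase, mt-Nd1 to mt-Nd6 with mt-Nd4l), cytochrome b of complex III (mt-Cytb), 3 subunits of complex IV (cytochrome c oxidase, mt-Co1 to mt-Co3) and 2 of ATP synthase (mt-Atp6 and mt-Atp8). All other subunits are encoded in the nucleus.

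Total counts were 29487244 to 30330950 in KO libraries and 27191862 to 30434184 in WT libraries, and 9386084 to 14741588 in shTet2 libraries and 6691167 to 18598386 in control lymphoma libraries. A hand-picked set of 12 abundant nuclear rows, here called structural rows, holds Rn7sk, Rpph1, Rmrp, Yam1 and Lars2 among others. Lars2 is the gene of mitochondrial leucyl-tRNA synthetase and held 4.26% to 23.6% of the set's counts in control lymphoma libraries; that its reads, or those of Yam1, are structural RNA was not checked. The set took 0.551% to 0.838% of the counts in KO libraries and 0.271% to 1.06% in WT libraries. The same rows took 19.8% and 34.6% in shTet2 libraries, and 37.4% to 72.2% in control lymphoma libraries, with no overlap. Tet2 itself stood at 7.79 to 9.53 CPM (read counts on a common library size) in KO libraries and 7.53 to 8.95 in WT libraries, which overlap, so KO below means the libraries labelled so. It stood at 79.4 and 86.0 CPM in shTet2 libraries and 89.0 to 105 in control libraries (log2 fold change -0.21, adjusted p = 0.295). CPM were scaled by trimmed mean of M-values (TMM) factors over all 14 libraries, and the 2 cell types are in different tables. B cell markers were present in every group: Ms4a1 lay between 1067 and 1201 CPM in KO libraries and between 1155 and 1188 in WT libraries, and at 935 and 1145 in shTet2 libraries and between 954 and 1186 in control libraries. GC B cell markers were low in control lymphoma libraries, with S1pr2 at 2.19 to 9.21 CPM there, against 265 to 325 in WT libraries. Nothing states that the libraries of a group come from separate animals, so each p-value rests on the spread among the libraries at hand, which may be technical.

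A first pattern concerned which members could be counted at all. Of the 13 protein genes, 7 held nearly all counts and 6 held almost none: mt-Co2, mt-Atp8, mt-Atp6, mt-Co3, mt-Nd3 and mt-Nd4l had between 3 and 258 counts each in all 7 GC B cell libraries summed, 688 together. In the 7 lymphoma libraries they had between 2 and 23 counts each, 57 together. The 5 protein genes mt-Nd1, mt-Nd2, mt-Nd5, mt-Nd6 and mt-Cytb had between 148401 and 1442439 counts each in the GC B cell libraries. The 6 low genes are neighbours, and they fill the middle of 1 stretch of the mitochondrial genome (GRCm38, chrM:6381-11042, 4662 bases) that has a copy on the minus strand of chromosome 1. GENCODE vM21 annotates 7 unprocessed pseudogenes there (chr1:24611535-24616197), all in the same order as the genes. Over 4149 compared bases the copies differ from the genes at 7, and 5 of the 7 are identical to their genes. None of these copies is of mt-Atp8 or a transfer RNA gene, and mt-Atp8 was compared only where it overlaps mt-Atp6. The command line in the file headers shows no option to count reads that align to more than 1 place, and featureCounts leaves such reads out by default. Of the 7 pseudogenes, 6 have no row in the count tables. Gm10222, the copy of mt-Nd4l, has a row at chr1:24612407-24612700 and held 4 counts in the GC B cell libraries and 1 in the lymphoma libraries.

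The copy and the gene are shown side by side at 3 points, 60 bases each, since a read from either cannot be placed where they are the same. mt-Co2 (chrM:7013-7072) and its copy Gm28661 (chr1:24615506-24615565, minus strand) begin without a difference. mt-Nd3 (chrM:9459-9518) and Gm28438 (chr1:24613060-24613119, minus strand) differ once in 345 bases, T3C counted from the first base of the gene. mt-Co1 enters the copied stretch at base 1054 (chrM:6381-6440 shown, with Gm29216 at chr1:24616138-24616197, minus strand), and its 6 differences (T1056A, C1057T, A1059G, A1060G, C1062A and A1066T) all lie in the first bases shown. Sequences are from the GENCODE vM21 transcripts, 5′ to 3′, and capitals mark the bases that differ.
mt-Co2: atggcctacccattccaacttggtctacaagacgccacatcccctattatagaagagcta
Gm28661: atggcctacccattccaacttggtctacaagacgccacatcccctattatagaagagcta
mt-Nd3: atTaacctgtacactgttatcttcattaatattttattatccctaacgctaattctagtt
Gm28438: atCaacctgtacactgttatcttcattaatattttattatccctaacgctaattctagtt
mt-Co1: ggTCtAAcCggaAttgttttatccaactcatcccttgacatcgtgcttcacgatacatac
Gm29216: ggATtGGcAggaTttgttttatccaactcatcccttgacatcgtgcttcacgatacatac

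**Figure D1:**
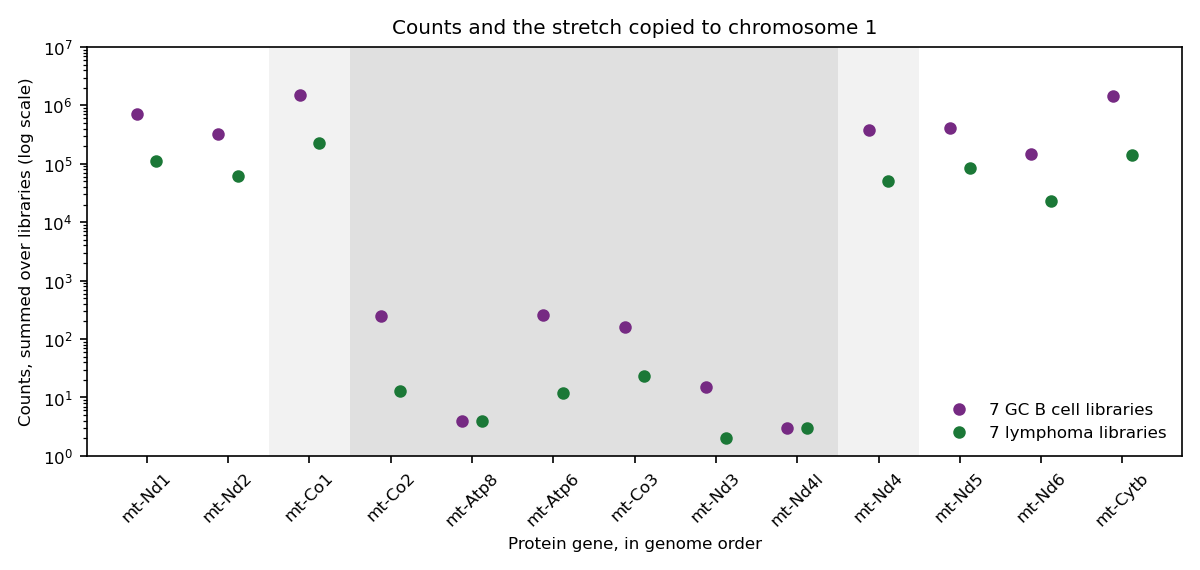
Counts of the 13 protein genes in genome order, summed over the 7 GC B cell libraries and the 7 lymphoma libraries, on a log axis. Dark shading marks genes wholly inside the stretch copied to chromosome 1, by position, and light shading genes partly inside. mt-Atp8 has no compared copy of its own. The 6 dark-shaded genes have 2 to 258 counts, the others 23134 or more.

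mt-Co1 and mt-Nd4 lie partly in the stretch, with 1053 and 502 bases outside it. Their levels per kilobase of the whole gene are therefore not on the same footing as those of the other genes. Taken over the bases outside the stretch alone, mt-Co1 reached 4985 CPM per kilobase in KO libraries, 3951 in WT libraries, 3635 in shTet2 libraries and 3971 in control lymphoma libraries. mt-Nd4 on the same scale reached 2402, 2309, 1364 and 2085 CPM per kilobase in the same 4 groups. Whether the reads of the 6 low genes were lost to the copy was not tested, since reads are not part of these data.

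The 2 ribosomal RNA genes separated the cell types more than any other members did. mt-Rnr1, the 12S RNA of the small mitochondrial subunit, had 260, 224, 249 and 222 CPM in KO libraries and 157, 228 and 373 CPM in WT libraries. In the lymphoma table it had 59512 and 58250 CPM in shTet2 libraries and 69377, 72276, 78086, 65786 and 82650 CPM in control libraries. mt-Rnr2, the 16S RNA of the large subunit, had 589, 574, 635 and 646 CPM in KO libraries and 360, 518 and 790 CPM in WT libraries, against 157293 and 175449 CPM in shTet2 libraries and 157509 to 179461 CPM in control libraries. Every lymphoma library was far above every GC B cell library, while KO and WT libraries overlapped. As a share of counts outside the structural rows, the pair took 0.123% to 0.136% in KO libraries and 0.0844% to 0.185% in WT libraries, and 27.5% and 29.6% in shTet2 libraries and 27.8% to 30.4% in control libraries. Counts of the pair per count of the 13 protein genes, a ratio that needs no scaling between libraries, were 0.0485 to 0.0580 in KO libraries and 0.0526 to 0.0627 in WT libraries, 20.6 and 23.2 in shTet2 libraries and 16.1 to 19.4 in control libraries. Ribosomal RNAs carry little or no poly(A), and the libraries are labelled as made with an mRNA kit; how much ribosomal RNA passed through in each library was not measured apart from these counts.

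**Figure D2:**
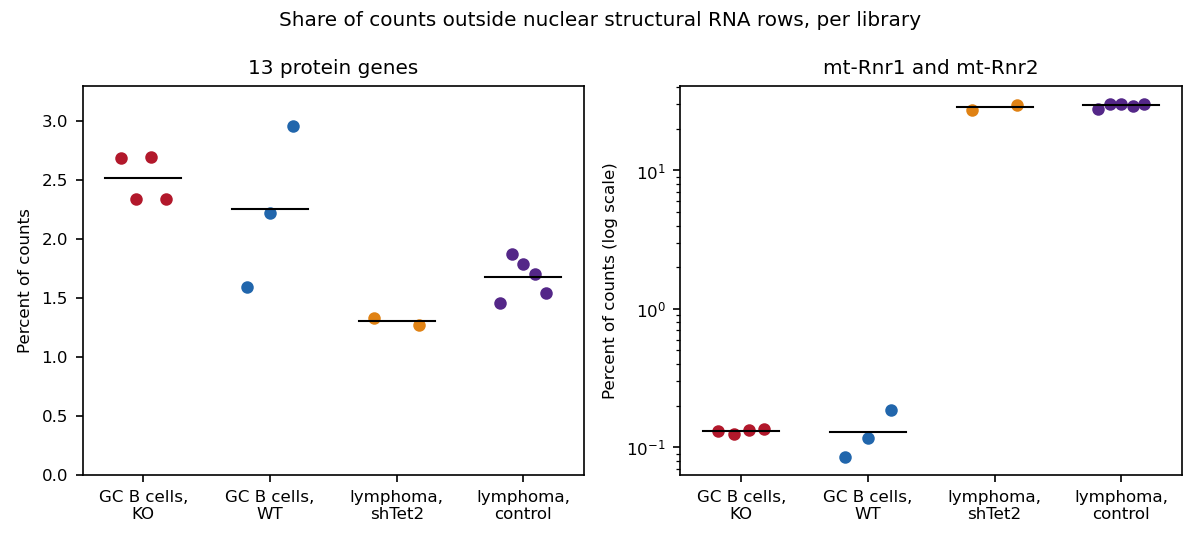
Percent of counts outside nuclear structural RNA rows taken by the 13 mitochondrial protein genes (left, linear axis) and by mt-Rnr1 and mt-Rnr2 (right, log axis), 1 point per library and a bar at the group mean. Protein genes lie between 1.27% and 2.96% in every library, while the ribosomal RNAs lie at 0.185% or less in GC B cell libraries and at 27.5% or more in lymphoma libraries.

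Transfer RNA genes gave few counts, 5951 in the GC B cell libraries and 2573 in the lymphoma libraries, and 7 of the 22 had none in any library (mt-Tf, mt-Tw, mt-Ty, mt-Td, mt-Tk, mt-Tg and mt-Th). Of 36 borders between neighbouring members, 26 have 0 to 5 free bases and 9 overlap, and reads that overlap more than 1 gene are left out by default. A group of 5 genes, mt-Tc, mt-Tp, mt-Tl1, mt-Te and mt-Ta (which carry cysteine, proline, leucine, glutamate and alanine), held 95.7% of the transfer RNA counts in GC B cell libraries and 91.4% in lymphoma libraries. Of these 5, 4 are encoded on the minus strand, opposite most genes: the 8 minus-strand transfer RNA genes held 77.2% of the counts in GC B cell libraries and 86.1% in lymphoma libraries. The command line shows no strand option, so reads from the opposite transcript would be counted in the same row. mt-Tc and mt-Tn (12 counts in all) lie on either side of a gap of 32 bases, the only border with more than 10 free bases, and mt-Tp borders the noncoding control region. The 5 sequences are given since they carry nearly all of this signal, sense strand, 5′ to 3′, from GENCODE vM21 (GRCm38), with the anticodon in capitals: mt-Tc at chrM:5192-5257 (minus), mt-Tp at chrM:15356-15422 (minus), mt-Tl1 at chrM:2676-2750 (plus), mt-Te at chrM:14071-14139 (minus) and mt-Ta at chrM:5018-5086 (minus).
mt-Tc: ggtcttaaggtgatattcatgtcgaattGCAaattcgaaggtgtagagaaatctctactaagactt
mt-Tp: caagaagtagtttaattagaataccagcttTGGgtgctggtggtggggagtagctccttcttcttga
mt-Tl1: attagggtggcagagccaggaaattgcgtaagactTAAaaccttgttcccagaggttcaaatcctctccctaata
mt-Te: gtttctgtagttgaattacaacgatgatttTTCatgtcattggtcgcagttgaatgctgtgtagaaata
mt-Ta: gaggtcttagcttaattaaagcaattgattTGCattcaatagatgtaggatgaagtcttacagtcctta

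mt-Tc, the highest transfer RNA gene in the lymphoma libraries, had 9.36, 5.93, 2.81 and 14.3 CPM in KO libraries and 2.44, 2.57 and 6.41 CPM in WT libraries. It had 28.4 and 25.6 CPM in shTet2 libraries and 36.7, 41.3, 30.3, 36.9 and 37.7 CPM in control libraries. The lymphoma libraries were all above the GC B cell libraries, and shTet2 libraries were below all control libraries. The edgeR test did not call the latter difference (adjusted p = 0.0988). How many of all genes separate in these ways was not counted. mt-Tp ran the other way in control lymphoma libraries, at 0.976 to 3.18 CPM, against 4.12 to 6.30 in KO libraries and 3.31 to 7.72 in WT libraries. The shTet2 libraries, at 4.0 and 3.36 CPM, lay inside the WT range. mt-Te had 1.76 to 3.08 CPM in KO libraries and 1.20 to 2.10 in WT libraries. It had 0.899 and 0.315 CPM in shTet2 libraries and 0 to 1.46 in control libraries. Control and WT libraries overlapped for mt-Te, and the control values rest on 0 to 6 counts per library.

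Among the countable protein genes, mt-Cytb and mt-Co1 led in GC B cells, and over the bases outside the copied stretch alone mt-Co1 (above) was the higher of the pair. Per kilobase of gene, mt-Cytb averaged 4116 ± 616 CPM in KO libraries (SD, n = 4) and 3728 ± 1107 CPM in WT libraries (SD, n = 3). mt-Co1 averaged 3397 ± 75.7 CPM per kilobase in KO libraries and 2693 ± 871 in WT libraries, followed by mt-Nd1 with 2466 ± 299 and 2127 ± 596. The next genes, mt-Nd2, mt-Nd6, mt-Nd4 and mt-Nd5, had 1013, 954, 875 and 732 CPM per kilobase in KO libraries and 905, 818, 841 and 651 in WT libraries, where each lay within 1 SD of the next in order in both groups. The place of mt-Nd4 holds for whole-gene length only: over its bases outside the copied stretch (above) it lies above mt-Nd2 and mt-Nd6 in both groups, and above mt-Nd1 in WT libraries. In lymphoma libraries mt-Co1 led, with 2478 ± 145 CPM per kilobase in shTet2 libraries (SD, n = 2) and 2706 ± 209 in control libraries (SD, n = 5). mt-Cytb had 1873 ± 42.2 in shTet2 libraries and 2380 ± 205 in control libraries, within the spread of mt-Nd1 in control libraries (2363 ± 204). mt-Cytb took 28.6% of the protein gene counts in KO libraries, 30.2% in WT libraries, 20.8% in shTet2 libraries and 19.7% in control libraries. mt-Nd5 took 8.12%, 8.26%, 9.92% and 12.7% in the same groups.

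**Figure D3:**
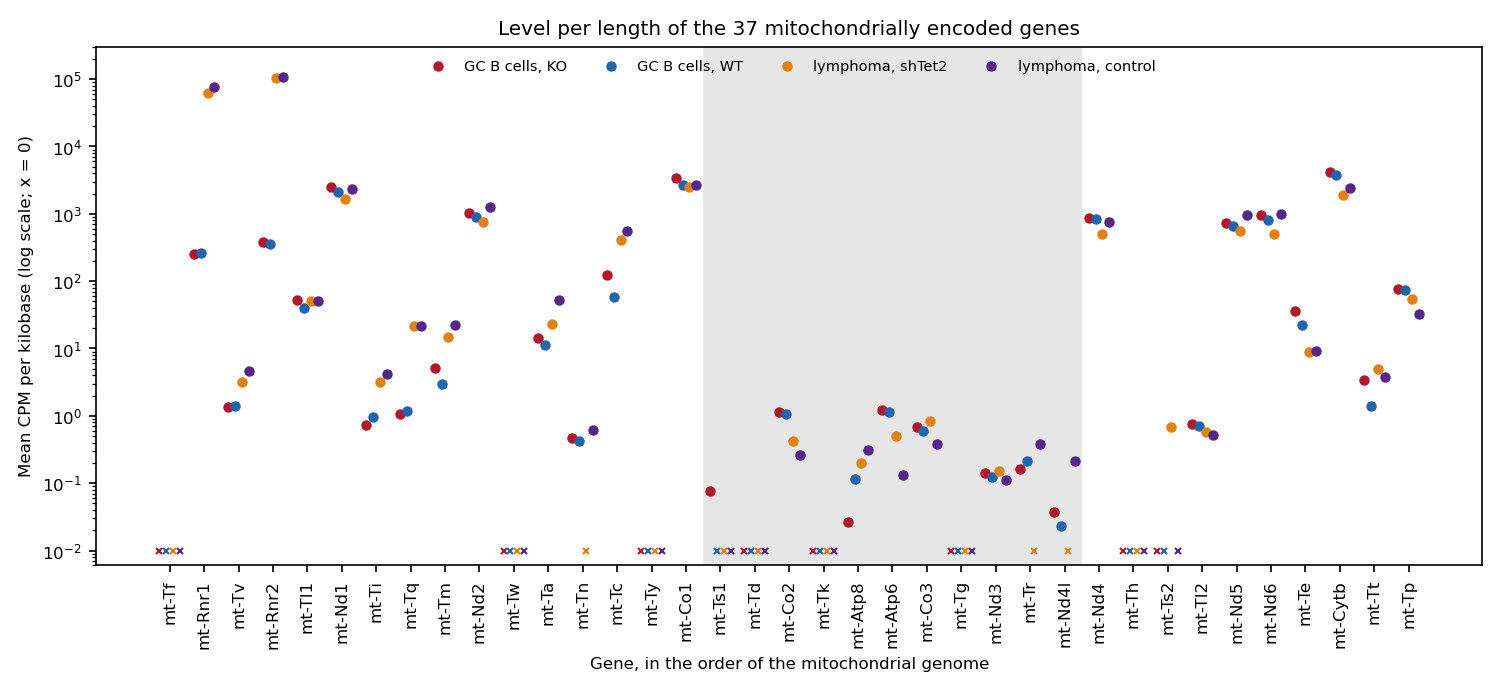
Mean CPM per kilobase of gene (log axis) of all 37 members in genome order, 1 point per group, with crosses for groups at 0. Gray marks genes wholly inside the stretch copied to chromosome 1, where every mean lies at 1.22 CPM per kilobase or less; the 2 ribosomal RNA genes stand at 61656 or more in both lymphoma groups and at 386 or less in both GC B cell groups.

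KO was compared with WT in GC B cells to ask whether loss of TET2 shifted mitochondrial RNA. No member passed the test: of 18 members with enough counts, 0 were called at an adjusted p under 0.05 (edgeR quasi-likelihood test), where 1.92% of 13600 tested genes were called higher and 4.57% lower. DESeq2 also called 0, and 1 member had an unadjusted p under 0.05. The tested members had a median log2 fold change of 0.12, against 0.01 over all tested genes, and ranged from -0.13 (mt-Rnr1) to 1.04 (mt-Tc). The smallest p belonged to mt-Te (log2 fold change 0.61, SE 0.25, adjusted p = 0.183).

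Protein genes varied more within WT libraries than between the groups. mt-Co1 had 5352, 5084, 5255 and 5304 CPM in KO libraries, against 2876, 4045 and 5560 CPM in WT libraries (log2 fold change 0.28, SE 0.18, adjusted p = 0.435). mt-Cytb had 5171, 4346, 5415 and 3904 CPM in KO libraries and 2989, 4282 and 5522 CPM in WT libraries (0.09, SE 0.20). mt-Nd1, at 2689, 2060, 2498 and 2193 CPM in KO libraries and 1486, 1997 and 2625 CPM in WT libraries, differed by 0.16 (SE 0.17). In all 3 genes WT replicate 1 was the lowest library and WT replicate 4 was high, above all KO libraries for mt-Co1 and mt-Cytb. The share of counts held by the 13 protein genes followed the same order, with 2.69%, 2.34%, 2.69% and 2.34% in KO libraries and 1.60%, 2.22% and 2.96% in WT libraries. Structural rows moved with it among WT libraries, at 0.271%, 0.453% and 1.06% in replicates 1, 3 and 4, but ran the other way among KO libraries, at 0.551%, 0.733%, 0.575% and 0.838% in replicates 2 to 5. The part of library make-up in this spread was not tested. Without WT replicate 4, mt-Co1 was called higher in KO libraries (log2 fold change 0.55) as the only member, where 721 of all 13872 tested genes were called.

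Other complex I genes were as close. mt-Nd2 had 1099, 930, 1195 and 982 CPM in KO libraries and 645, 953 and 1220 CPM in WT libraries. mt-Nd4 had 1353, 1069, 1403 and 998 CPM in KO libraries, against 764, 1168 and 1546 CPM in WT libraries. mt-Nd5 had 1225, 1253, 1698 and 1167 CPM in KO libraries and 710, 1309 and 1541 CPM in WT libraries. The groups overlapped for each, and their log2 fold changes were 0.11, 0.00 and 0.12 (SE 0.19, 0.25 and 0.28). mt-Nd6, the light-strand gene, had 605, 395, 556 and 424 CPM in KO libraries, against 318, 419 and 535 CPM in WT libraries (0.17, SE 0.21).

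Nuclear genes that serve the mitochondrion also showed few calls between KO and WT. Of 18 genes for transcription and replication of mitochondrial DNA (such as Polrmt, the mitochondrial RNA polymerase, and Tfam, which packs the DNA and starts transcription), 0 passed in either direction, with a median log2 fold change of -0.03. Of 33 genes of mitochondrial RNA processing and stability, 0 passed (median 0.03), and of 49 nuclear oxidative phosphorylation subunits, 0 passed (median 0.02). Of 76 mitochondrial ribosomal protein genes, 1 was lower in KO libraries, Mrpl52 of the large subunit (-0.44, SE 0.10, adjusted p = 0.0132), and of 16 mitochondrial aminoacyl-tRNA synthetases 0 passed. Among markers of other cells, 8 of 10 tested macrophage and myeloid genes were lower in KO libraries, whose summed level was 21.1 to 24.1 CPM, against 38.4 to 52.4 in WT libraries. Of 5 tested T cell markers, Thy1 was higher (2.51) and Lck lower (-0.54), and their summed level was 78.6 to 95.0 CPM in KO libraries and 106 to 134 in WT libraries, with no overlap. None of the 12 myeloid genes had a group mean of 0, and the part of such cells in the mitochondrial values was not tested. In bulk RNA, fewer cells of a type and less RNA per cell cannot be told apart.

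In lymphoma cells 5 members passed the test, all lower in shTet2 libraries, and all encode subunits of complex I. Of 15 tested members 0 were higher, where 1.84% of 12797 tested genes were called higher, and 5 were lower, where 0.742% were. The calls were mt-Nd1, mt-Nd2, mt-Nd4, mt-Nd5 and mt-Nd6, every complex I gene that could be counted. The tested members had a median log2 fold change of -0.45, against 0.00 over all tested genes, with 14 negative and 1 positive, and 9 had an unadjusted p under 0.05.

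mt-Nd1 had 1648 and 1487 CPM in shTet2 libraries, against 2088, 2521, 2411, 2191 and 2094 CPM in control libraries (log2 fold change -0.55, SE 0.11, adjusted p = 0.0270). mt-Nd2 had 807 and 770 CPM in shTet2 libraries, against 1182, 1540, 1557, 1088 and 1257 CPM in control libraries (-0.77, SE 0.15, adjusted p = 0.0225). In genome order only mt-Ti, mt-Tq and mt-Tm lie between these 2 genes, and for both the groups did not overlap. mt-Nd4 had 714 and 656 CPM in shTet2 libraries and 877, 1172, 1168, 957 and 1058 CPM in control libraries (-0.63, SE 0.13, adjusted p = 0.0248). mt-Nd5 had 996 and 1042 CPM in shTet2 libraries, against 1436, 1951, 2256, 1597 and 1560 CPM in control libraries (-0.81, SE 0.17, adjusted p = 0.0337). mt-Nd6 had 252 and 263 CPM in shTet2 libraries, against 379, 604, 630, 442 and 485 CPM in control libraries (-1.0, SE 0.20, adjusted p = 0.0337). mt-Nd5 and mt-Nd6 face each other on opposite strands and overlap by 14 bases. Without a strand option, sense and antisense reads over mt-Nd6 cannot be told apart.

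**Figure D4:**
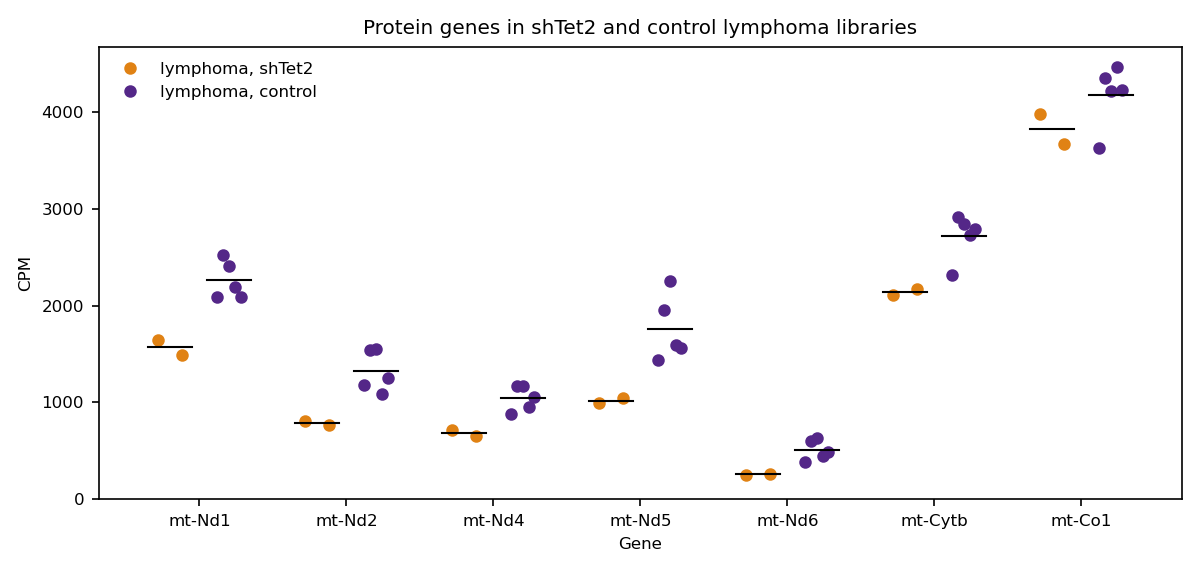
CPM of the 7 countable protein genes in the 2 shTet2 and 5 control lymphoma libraries, 1 point per library and a bar at the group mean. For the 5 complex I genes and mt-Cytb both shTet2 points lie below all control points, and for mt-Co1 the groups overlap. How many of all genes separate in this way was not counted.

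The other countable protein genes did not pass. mt-Co1 had 3986 and 3669 CPM in shTet2 libraries, against 3632, 4350, 4225, 4465 and 4234 CPM in control libraries, which overlap (-0.15, SE 0.11, adjusted p = 0.484). mt-Cytb had 2108 and 2177 CPM in shTet2 libraries, below all of 2322, 2918, 2844, 2733 and 2798 CPM in control libraries (-0.37, SE 0.11, adjusted p = 0.103), and DESeq2 called it (adjusted p = 0.0239). mt-Rnr1 was lower by -0.34 (SE 0.12, adjusted p = 0.161) on the log2 scale with no overlap, also called by DESeq2 (adjusted p = 0.0367), while mt-Rnr2 differed by -0.05 (SE 0.12). Among transfer RNA genes, mt-Tc differed by -0.45 (SE 0.13, adjusted p = 0.0988) and mt-Ta by -1.14 (SE 0.42, adjusted p = 0.163), and mt-Tp was the 1 positive value (0.68, SE 0.36, adjusted p = 0.326).

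Ratios within a library show the same values without scaling between libraries; the first 2 of those that follow were chosen after their values were seen. The 5 complex I genes together gave 1.11 and 1.15 counts per count of mt-Co1 in shTet2 libraries, against 1.64, 1.79, 1.90, 1.41 and 1.52 in control libraries. Counts of mt-Rnr2 per count of mt-Rnr1 were 2.64 and 3.01 in shTet2 libraries and 2.17 to 2.49 in control libraries. mt-Nd6 per count of the other 12 protein genes was 0.0245 and 0.0269 in shTet2 libraries and 0.0329 to 0.0436 in control libraries. The groups did not overlap in any of the 3. Another ratio not set in advance, mt-Cytb per count of mt-Co1, also separated the groups. It was 0.529 and 0.593 in shTet2 libraries and 0.612 to 0.673 in control libraries. A lower value relative to mt-Co1 was thus not particular to the complex I genes. How often other genes or ratios separate in this way was not counted. In GC B cells the same ratios overlapped between groups: 1.09 to 1.40 in KO libraries and 1.34 to 1.45 in WT libraries for complex I genes over mt-Co1, and 2.27 to 2.91 in KO libraries and 2.12 to 2.3 in WT libraries for mt-Rnr2 over mt-Rnr1.

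Values of library make-up moved with these calls. Structural rows took 19.8% and 34.6% of the counts in shTet2 libraries and 37.4% to 72.2% in control libraries, and with the ratio of structural to other counts as a covariate 0 of the 5 genes passed (log2 fold changes -0.32 to -0.63). That fit called 1 of all 12797 tested genes. The share of the 13 protein genes was 1.27% and 1.33% in shTet2 libraries and 1.46% to 1.88% in control libraries when structural rows were left out. Taken over all counts it was 0.873% and 1.02% in shTet2 libraries and 0.522% to 0.913% in control libraries, which overlap, and the difference changed sign. The calls rest on 2 shTet2 libraries. A fit without either of them leaves 1 library in that group, so only its log2 fold changes are used. Without control replicate 2 (the library with 72.2% of counts in structural rows) 0 members passed. Without control replicate 3 or 4, 2 did, and without control replicate 1 or 5, 4 did. Over all genes the fits without control replicates 1 to 5 called 127, 143, 100, 189 and 264, fewer than with every library. Every log2 fold change of the 5 genes stayed negative in each of these fits, between -0.48 and -1.09 with 1 library left out.

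Nuclear genes of the same machinery gave few calls. Of 49 nuclear oxidative phosphorylation subunits, 0 passed in either direction, with a median log2 fold change of 0.36. Of 75 mitochondrial ribosomal protein genes 1 was higher in shTet2 libraries, Mrps7 of the small subunit (0.72, SE 0.16, adjusted p = 0.0381), with a median of 0.26. Of 17 mitochondrial DNA transcription and replication genes, 33 RNA processing genes and 16 aminoacyl-tRNA synthetases, 0 passed, with medians of 0.21, 0.18 and 0.12. Nuclear RNAs that stay in the nucleus had negative values like those of the mitochondrial genes: Malat1 had 17840 and 12575 CPM in shTet2 libraries and 19444 to 22909 in control libraries (-0.47, adjusted p = 0.102), and Neat1 differed by -0.41 (adjusted p = 0.134). GC B cell markers were higher in shTet2 libraries for 2 of 7 genes, Fas (1.29, adjusted p = 0.0148) and S1pr2 (2.73, adjusted p = 0.0297), with a summed level of 289 to 353 CPM, against 178 to 229 in control libraries. Plasma cell markers were higher for 2 of 4, Xbp1 (0.81, adjusted p = 0.00800) and Prdm1 (1.21, adjusted p = 0.0327), with a summed level of 291 to 563 CPM, against 129 to 240. Of 7 T cell, 9 myeloid and 2 erythroid markers tested, 0 passed; the myeloid sum was 59.6 to 186 CPM in shTet2 libraries and 58.2 to 71.3 in control libraries. Their part in the mitochondrial values was not tested.

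**Figure D5:**
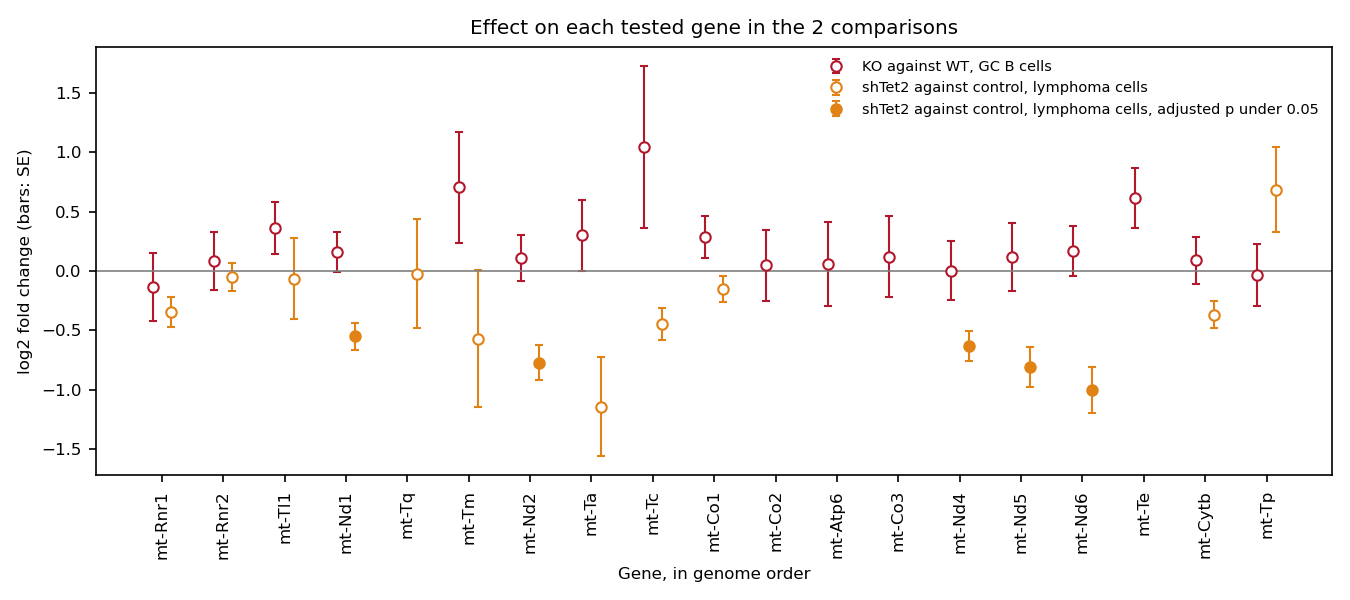
Log2 fold change with its standard error for each tested member in genome order, KO against WT in GC B cells and shTet2 against control in lymphoma cells. Filled points have an adjusted p under 0.05: only mt-Nd1, mt-Nd2, mt-Nd4, mt-Nd5 and mt-Nd6 in lymphoma cells, at -0.55 to -1.0, where the GC B cell values are 0.00 to 0.17.

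Whether the lymphoma effect differed from the GC B cell effect was tested in 1 model of all 14 libraries. Knock-down or knock-out, cell type, table, depth and library make-up change together in it and cannot be told apart. Of 20 tested members, 0 were called higher and 1 lower, where 3.39% and 1.61% of 15441 tested genes were called. The call was mt-Nd6, with a difference between the log2 fold changes of -1.20 (SE 0.32, adjusted p = 0.0455). mt-Nd1 (-0.74, SE 0.22, adjusted p = 0.0561) and mt-Nd2 (-0.91, SE 0.26, adjusted p = 0.0597) lay just outside the threshold. mt-Nd5 differed by -0.96 (SE 0.35, adjusted p = 0.148) and mt-Nd4 by -0.67 (SE 0.29, adjusted p = 0.213). The call of mt-Nd6 was lost in 11 of the 14 fits that leave out 1 library, in which its value ran between -1.03 and -1.40. Without WT replicate 4 there were 5 calls, where 657 of all 14833 tested genes were called. DESeq2 made 4 calls, with mt-Nd1, mt-Nd2 and mt-Nd5 beside mt-Nd6, where it called 1198 of all 15441 tested genes. For the other members a difference between the 2 effects was not shown.

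Control lymphoma cells were also set against WT GC B cells, where cell type, table, depth and library make-up cannot be told apart. Of 20 tested members 8 were higher in control lymphoma libraries, where 40.2% of 15441 tested genes were called higher, and 5 were lower, where 40.4% were. The members' shares lie near or under that background, and their median log2 fold change was 0.33, against -0.03 over all genes. Shares and median include mt-Tq, mt-Te, mt-Atp6 and mt-Co2, which passed the filter only through the group where they are higher. Neither is therefore read further. The ribosomal RNAs stood far out, mt-Rnr1 by 8.19 (SE 0.28, adjusted p = 7.3e-15) and mt-Rnr2 by 8.25 (SE 0.26, adjusted p = 9.2e-16). The transfer RNA genes mt-Tc (3.26), mt-Tm (2.89) and mt-Ta (2.11) were higher, and mt-Tp (-1.13) was lower. mt-Tq (called higher) passed the filter only through the lymphoma libraries and mt-Te (called lower) only through the GC B cell libraries. Both are given as counts alone. mt-Tq had 16, 2, 14, 10 and 10 counts in control lymphoma libraries and 4, 8 and 0 in WT libraries. mt-Te had 4, 4, 6, 0 and 3 in control lymphoma libraries and 59, 64 and 90 in WT libraries.

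Protein genes moved little by comparison. mt-Nd2 was higher by 0.50 (SE 0.17, adjusted p = 0.0138) and mt-Nd5 by 0.57 (SE 0.23, adjusted p = 0.0335), and mt-Cytb was lower by -0.65 (SE 0.15, adjusted p = 0.000584). The call of mt-Nd5 was lost in 5 of the 14 fits that leave out 1 library (WT replicate 1, shTet2 replicate 1 or 2, control replicate 2 or 3) and its value ran between 0.33 and 0.83 over all 14. It was also lost without a filter on low counts (adjusted p = 0.133) and with control lymphoma and WT libraries only. The call of mt-Nd2 was lost without WT replicate 1 (0.31) and without a filter (adjusted p = 0.0595). mt-Co1 differed by 0.01 (SE 0.14), mt-Nd1 by 0.15, mt-Nd4 by -0.15 and mt-Nd6 by 0.26, and none of these passed. The other 2 lower calls, mt-Atp6 and mt-Co2, lie in the copied stretch and passed the filter only through the GC B cell libraries, so they are given as counts alone. mt-Atp6 had 0, 0, 2, 0 and 2 counts in control lymphoma libraries and 30, 21 and 55 in WT libraries, and mt-Co2 had 2, 0, 4, 1 and 0 in control lymphoma libraries and 27, 39 and 36 in WT libraries. The share of the 13 protein genes was 1.46% to 1.88% in control lymphoma libraries and 1.60% to 2.96% in WT libraries.

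Nuclear genes for the same complexes were lower in control lymphoma libraries for nearly every member: 47 of 49 oxidative phosphorylation subunits (median log2 fold change -2.04), among them Ndufa2 of complex I (-2.93) and Uqcrc1 of complex III (-2.06). Mitochondrial ribosomal proteins were lower for 72 of 76 and higher for 1 (median -1.81), with Mrpl4 at -2.67. The lists for mitochondrial DNA transcription (11 of 18 lower, 1 higher), RNA processing (21 of 33 lower, 3 higher) and aminoacyl-tRNA synthetases (11 of 16 lower, 3 higher) had medians of -0.69, -0.67 and -0.78. Tfam was lower by -0.76 and Polg, the DNA polymerase of the mitochondrion, by -1.19. Malat1 (6.43) and Neat1 (2.54) were higher. Marker lists also moved: 7 of 7 GC B cell markers were lower, and 7 passed the filter within each cell type too. Of 8 T cell markers 7 were called higher and 1 lower (Lck, -2.55). The filter passed 5 of them within GC B cells and 7 within lymphoma cells. Of 5 erythroid markers 4 were called lower and 1 higher (Alas2, 1.71), and 4 of 5 plasma cell markers were called lower. Within lymphoma cells 2 erythroid and 4 plasma cell markers passed the filter. Myeloid markers were called higher for 2 of 11, Lyz2 (2.80) and Itgam (1.39). Some markers of other cells can thus have passed only through the group where they are high. Their calls are not read further. The summed T cell marker level was 24.4 to 52.9 CPM in control lymphoma libraries and 106 to 134 in WT libraries, and the part of other cells in the mitochondrial values was not tested.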

How the data were processed

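The deposited values are whole-number counts of reads over GENCODE vM3 exons from featureCounts 1.5.1, whose command line, per the file headers, shows no strand, paired-end or multi-mapping option. Alignment was by STAR 2.3.0e on GRCm38.p3, per the submitters' processing notes; RNA came by Trizol and RNeasy and libraries from a TruSeq stranded mRNA kit, per the labels' protocols. All 14 libraries were used. Tests were edgeR 4.0.16 quasi-likelihood fits in R 4.3.3 over all genes passing filterByExpr, with TMM scaling and Benjamini-Hochberg adjustment. The first 2 comparisons used their own table, and the others 1 model of 4 groups. The members and gene lists were chosen with earlier results of these data known. Text names all protein and ribosomal RNA members, transfer RNA members that passed the filter where they bear on a result, and up to 3 called genes per list. Fits were tested on data made with 200 known changes. Alternatives were other scalings, filters, DESeq2 1.42.0, limma-voom (limma 3.58.1), a replicate block, a structural RNA covariate and left-out libraries. Replicates differed by more than counting error in every pair. Copies on chromosome 1 were compared base by base using vM21 transcripts, and the 37 members have the same coordinates in both releases. A few marker genes are not reported here.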

Additional observations from a re-analysis of the deposited data

Results flagged for a closer look

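Only 1 of the tested members had an effect that differed between the lymphoma and GC B cell comparisons by the test of the difference. It was mt-Nd6, at -1.20 (log2, lymphoma effect minus GC B cell effect), and the call was lost in most fits that leave out 1 library. Of 60 sets of 4 KO or 5 control values examined, 4 held a library far from the others by Dixon's criterion, which chance gives in about 1 of 20. In KO libraries mt-Nd5 reached 1698 CPM in replicate 4, with the others at 1167 to 1253. In control lymphoma libraries mt-Co1 was lowest in replicate 1, at 3632 CPM, with the others at 4225 to 4465. mt-Ta reached 5.85 CPM in control replicate 2, with the others at 2.54 to 3.28. mt-Tq reached 3.12 CPM in control replicate 1, with the others at 0.731 to 1.34.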

How the results depend on the processing

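In KO against WT the count of calls stayed at 0 under every alternative except without WT replicate 4, which gave 1 higher (0 to 1 with 1 library left out). In shTet2 against control it was 5 lower, 7 with DESeq2, 4 without a filter and 2 in 1 model of all 14 libraries. It was 0 with the structural RNA covariate and 0 to 4 with 1 control library left out. Over all genes the fit without a filter called 782 of 22454, and the 1 model called 840 of 15441. Fits with 1 control library left out called 100 to 264 genes. The difference between effects gave 1 lower, 4 with DESeq2 and 0 to 5 with 1 library left out. Over all genes DESeq2 called 1266 of 13600 in KO against WT, 593 of 12797 in shTet2 against control and 1198 of 15441 in the difference between effects. The main fits called 261 higher and 622 lower, 235 higher and 95 lower, and 523 higher and 248 lower in the same order. No member called in a comparison reversed under an alternative run there. The shTet2 share difference reversed over all counts, to 0.30 for protein genes and 0.37 for transfer RNA genes (log2, -0.36 and -0.28 otherwise), and was 0.61 for ribosomal RNA (-0.05 otherwise). For control lymphoma against WT cells the shares over all counts differed by -1.50 (protein), 6.80 (ribosomal) and 0.35 (transfer), against -0.39, 7.91 and 1.46, and the protein share by 0.11 with ribosomal rows left out. Mir6236 left out as well, chosen after seeing the data, changed no direction.

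The replicate numbers are shared by 2 libraries per group only, and deviations of same-numbered libraries correlated at 0.06 and -0.06 in GC B cells and -0.14 and -0.02 in lymphoma cells, so they were not taken as pairs. With a replicate block KO against WT gave 0 calls and shTet2 against control 0. Over all genes the block fits called 570 of 13600 and 4 of 12797. Uncalled members that changed sign with the block in GC B cells were mt-Atp6 -0.14, mt-Co2 -0.16, mt-Co3 -0.058, mt-Cytb -0.053, mt-Nd1 -0.064, mt-Nd2 -0.082, mt-Nd4 -0.18, mt-Nd5 -0.011, mt-Nd6 -0.066, mt-Rnr2 -0.13 and mt-Tc -0.044, and in lymphoma cells mt-Tl1 0.11.

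Other uncalled sign changes in KO against WT were mt-Tp with limma-voom (0.065) and in 1 model (0.016), and mt-Nd4 with a 1 CPM filter (-0.00035). For shTet2 against control they were mt-Tq with limma-voom (0.081), and mt-Co1 0.042 and mt-Tm 0.51 with the covariate. For control lymphoma against WT cells it was mt-Co1 with no filter (-0.10). The cause was not tested. With 1 library left out, members that changed sign ran as follows. In KO against WT mt-Atp6 lay between -0.23 and 0.61, mt-Co2 lay between -0.13 and 0.15, mt-Cytb lay between -0.11 and 0.32, mt-Nd1 lay between -0.021 and 0.39, mt-Nd2 lay between -0.10 and 0.35, mt-Nd4 lay between -0.22 and 0.27, mt-Nd5 lay between -0.14 and 0.35, mt-Rnr1 lay between -0.38 and 0.26, mt-Rnr2 lay between -0.15 and 0.43, mt-Tp lay between -0.26 and 0.41. In shTet2 against control mt-Rnr2 lay between -0.13 and 0.019, mt-Tl1 lay between -0.57 and 0.27, mt-Tq lay between -0.12 and 0.32. In the difference between effects mt-Atp6 lay between -0.26 and 2.11, mt-Co2 lay between -0.44 and 0.97, mt-Rnr1 lay between -0.63 and 0.011, mt-Rnr2 lay between -0.51 and 0.070, mt-Te lay between -1.36 and 0.11, mt-Tq lay between -0.78 and 0.87. In control lymphoma against WT cells mt-Co1 lay between -0.18 and 0.30, mt-Nd1 lay between -0.010 and 0.40, mt-Nd4 lay between -0.35 and 0.14.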
